A study of Arabidopsis thaliana with 6 samples.

Results

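The genes described here share a low signal in wild type replicate 3, an array of Arabidopsis thaliana seedling RNA. They were chosen by measured values: a mean intensity of 100 or more over the 6 arrays, and a log2(signal + 16) in wild type replicates 1 and 2 that was at least 0.8 above replicate 3 in both. Of 22746 gene probe sets on the array, 14023 reached the mean of 100 and 49 met both conditions. AT5G64120, AT5G39580 and AT4G22470 were left out by name, which leaves 46 members, or 0.328% of the probe sets at that brightness. The platform annotation gave 1 gene for 23 members and no gene for the other 23. Only 1 member has a probe set name of the kind that matches several transcripts. The low signal in wild type replicate 3 is therefore how the members were found and not a result.

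The series sets VFB mutant seedlings, 3 arrays, against wild type seedlings, 3 arrays, all grown in the light. The mutant plants are called a triple mutant of VFB, F-box proteins that recruit targets for ubiquitination, and the labels do not name the mutated genes. The wild type plants are accession Col-0. Descriptions give 10 days for all 6 samples, but source names and extract protocols give 5 days for mutant samples, so genotype and age cannot be told apart. The extract protocol of mutant replicate 3 also mentions a No-0 wild type, and that sample was grouped by its title. Each sample was about 80 mg of whole seedlings, so fewer cells of a type and less RNA per cell cannot be told apart.

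As background, plant cells meet touch, cold, salt, wounding and microbes with a rapid wave of transcription. Receptor kinases at the plasma membrane sense a stimulus, cytoplasmic kinases such as BIK1 relay it, and zinc finger, WRKY and ERF factors change transcription of genes for secreted proteins, transporters and wall enzymes. STZ, also called ZAT10, is a C2H2 zinc finger repressor of this kind, induced by salt, cold and wounding, and many such transcripts respond within minutes to handling of the plant. The annotation used here gives many members only as a locus number, and what is said below of the products of such loci is general background.

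No array stood far from its group over the 13647 tested probe sets, which leave out the dimmest. Pearson's r of log2 signals ranged over 0.9779 to 0.9803 for pairs of mutant arrays and 0.9779 to 0.9852 for pairs of wild type arrays. The rule found a like number in another wild type array: 39 probe sets were as low in wild type replicate 1 and 10 in replicate 2, and 11 were as high in replicate 3. The 3' to 5' signal ratios of control transcripts, a measure of RNA integrity, lay in wild type replicate 3 between those of the other wild type arrays for actin (2.86, against 2.55 and 3.00), for GAPDH (1.11, against 1.08 and 1.19) and for ubiquitin (1.47, against 1.53 and 1.33). The actin ratio did differ between the genotypes, at 3.19, 3.56 and 3.45 in mutant arrays, above all 3 wild type arrays, and its part in the mutant changes below was not tested. Green tissue genes, 13 probe sets, summed to 148723 to 162666 in mutant arrays and 132513 to 148408 in wild type arrays, with 140802 in replicate 3. The root gene PYK10 was at 12387.1 to 17028 in mutant arrays and 12618.1 to 13438.8 in wild type arrays. EXPA7, the other root gene matched, was too dim for the test. It was at 49.5, 4.9 and 35 in the mutant, against 62.5, 37.7 and 75 in wild type. The clock gene GI was at 620.9 to 724.8 in mutant arrays and 553.9 to 558.7 in wild type arrays. CCR2, the other clock gene matched and also too dim, was at 58.1, 100.4 and 74.8 in the mutant, against 75.8, 104.2 and 92 in wild type. On the green tissue sum, PYK10, GI and CCR2 wild type replicate 3 lay within or just below the range of the other wild type arrays. On the dim EXPA7 it lay above that range.

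The members that were low in wild type replicate 3 were mostly higher in the mutant than in any wild type array. For 28 of 46 members every mutant array lay above every wild type array, against 14.8% of all 14023 probe sets with a mean of 100 or more. The mutant mean lay above the mean of wild type replicates 1 and 2 for 37 of 46 members, against 45.4% of those probe sets. The 46 include 9 members with a wild type mean under 100, which were admitted through their mutant signals. A higher mutant signal was in part required of these 9, and counts by the wild type mean are given below. The median signal over the members was 339.1, 284.3 and 282.85 in mutant replicates 1, 2 and 3, and 218.4, 225.5 and 87.8 in wild type replicates 1, 2 and 3. By these medians the mutant arrays lay highest and wild type replicate 3 lowest, as the rule requires of the wild type. Over all 46 members the mutant mean was 1.66 times the mean of wild type replicates 1 and 2 at the median (0.247 to 4.96).

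**Figure D1:**
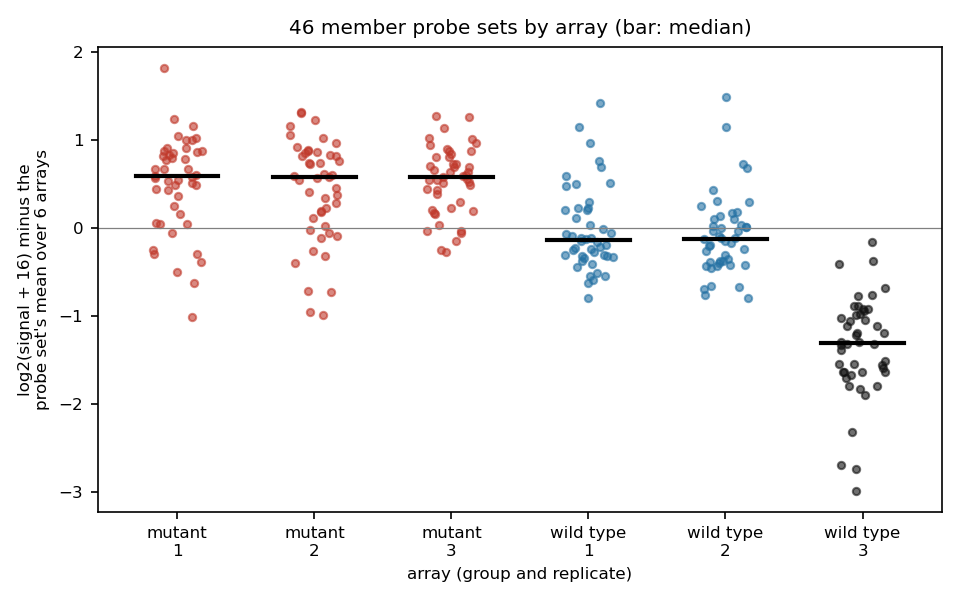
Each point is 1 of the 46 member probe sets on 1 array, as log2(signal + 16) minus that probe set's mean over the 6 arrays, with a bar at the median; mutant arrays are red, wild type replicates 1 and 2 blue and wild type replicate 3 black. The 3 mutant arrays lie highest, wild type replicates 1 and 2 between, and wild type replicate 3 lowest.

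In limma's fit over all tested probe sets, 24 of 40 tested members were higher in the mutant and 0 were lower, at an adjusted p under 0.05. Over all 13647 tested probe sets 8.17% were higher and 10.4% lower. At an unadjusted p under 0.05, 0 members were lower, against 18.4% lower over all tested probe sets. The median log2 change of the tested members, mutant minus wild type, was 1.13, against -0.05 over all tested probe sets. The rule used the wild type arrays, which also enter this contrast: it lowers 1 wild type value and widens the wild type spread of every member. The calls are therefore a description of the members and not independent support.

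Taking wild type replicate 3 out of the comparison left a baseline of the 2 wild type arrays that the rule required to be high. Against them 18 of 40 tested members were higher and 3 were lower by limma, where 6.29% and 7.33% of all tested probe sets were called. All 18 were among the 24 called with every array, and the other 6 lost their call. The median log2 change of the tested members was 0.72 against this baseline, beside -0.03 over all tested probe sets. The other 19 tested members were called in neither direction against wild type replicates 1 and 2.

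The mean of 100 was taken over all 6 arrays, so bright mutant signals alone could admit a probe set. For 9 members the wild type mean was under 100, and 5 of the 6 of these that were tested were called higher. With the mean taken over the wild type arrays only, a choice made after seeing the data, 38 probe sets met the rule, 37 of them among the 46. Every mutant array was above every wild type array in 21 of the 38, against 14.1% of 14100 probe sets with that wild type mean, and the mutant mean was above wild type replicates 1 and 2 in 29, against 44.0%.

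The sets found by the same gap in the other wild type arrays are given for comparison, with no test of the difference. Over all tested probe sets 8.17% were called higher and 10.4% lower. Every mutant array was above every wild type array in 14.8% of probe sets with a mean of 100 or more. Of the 39 probe sets low in wild type replicate 1, 35 were tested, 2 were called higher and 1 lower, and 4 of the 39 had every mutant array above every wild type array. Of the 10 low in wild type replicate 2, 8 were tested and 1 was called higher, and 1 of the 10 had no overlap of this kind. Of the 24 high in wild type replicate 1, 19 were tested, 4 were called higher and 0 lower, and 6 of the 24 had none. Of the 11 high in wild type replicate 2, 10 were tested, 3 were called higher and 1 lower, and 4 of the 11 had none. Of the 11 high in wild type replicate 3, 10 were tested and 1 was called higher.

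**Figure D2:**
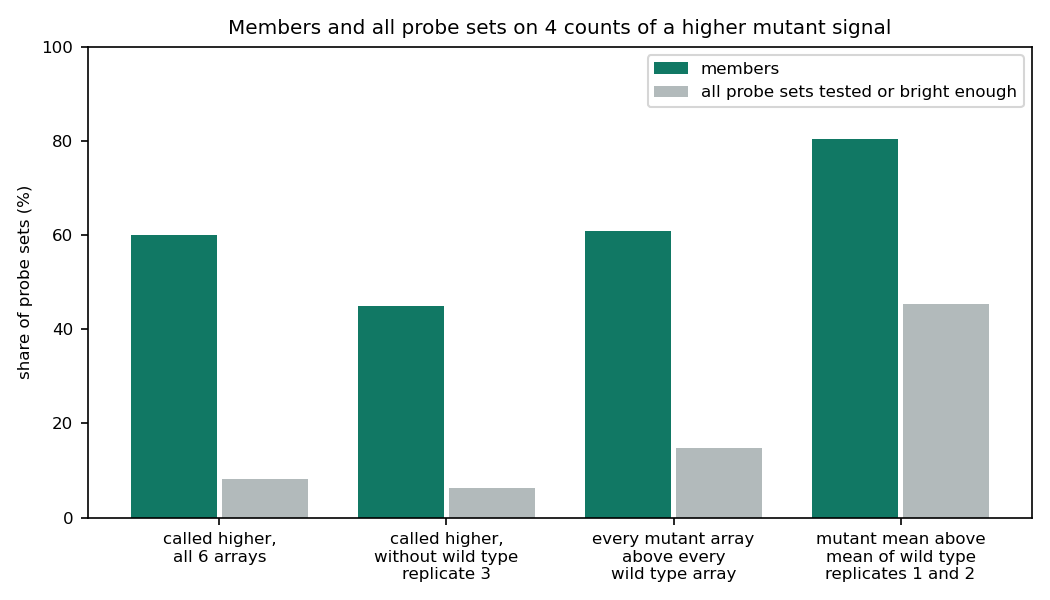
Bars give the share of probe sets (%) that meet 4 counts of a higher mutant signal, for the members (green) and for all probe sets tested or with a mean of 100 or more (grey). The members' bars come from 24 and 18 of 40 tested members and from 28 and 37 of 46 members, and each is taller than its grey bar. The 46 include 9 members that reached the mean of 100 only through their mutant signals.

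Among transcription regulators, STZ is the member named here. STZ had signals of 728.8, 943.4 and 759.9 in the mutant, against 373.3, 463.1 and 200.6 in wild type replicates 1, 2 and 3. All mutant arrays were above all wild type arrays. The log2 change was 1.26 ± 0.233 (SE; limma, adjusted p = 0.00263), and 0.93 ± 0.160 (adjusted p = 0.00196) against wild type replicates 1 and 2 alone. STZ was the only gene of its fixed zinc finger list with a probe set named here. Of 6 tested WRKY genes, 2 were higher and 0 lower by limma, against 8.17% and 10.4% of all tested probe sets. None of the 6 was a member. WRKY6 was at 305.5, 313.7 and 360.7 in the mutant and 212.5, 161 and 135.6 in wild type (log2 change 0.90 ± 0.175), and WRKY47 changed by 0.47 ± 0.139. Neither gene reached the gap of 0.8 in wild type replicate 3.

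The named members whose levels over the 6 arrays were most like STZ, by Pearson's r of log2 values, were AT2G36690 (0.991), AT2G17740 (0.978), AT1G51850 (0.977), AT3G46280 (0.974), AT1G65870 (0.969) and AT1G70250 (0.968). In all 27 of the other 45 members had an r of 0.9 or more with STZ, the median was 0.931 and the lowest -0.432. These values rest on 6 arrays in 2 groups, and the rule itself made all members low in 1 of them.

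The named members include 6 kinase or kinase-related genes, grouped here after their values were seen, so their common direction supports nothing. In these genes every mutant array was above every wild type array, and the log2 changes were 0.75 to 1.74. AT1G51820 and AT1G70250, with wild type means of 71.4 and 82.4, reached the mean of 100 only through their mutant signals, so a higher mutant signal was in part required of them. AT1G51820 and AT1G51850 encode leucine-rich repeat receptor kinases of 1 gene cluster, with 3 genes between them, so cross-hybridisation between close relatives is possible and was not tested. AT1G51820 was at 285.4, 236.3 and 260.3 in the mutant, against 81.7, 97.2 and 35.4 in wild type. AT1G51850 was at 759.3, 806.4 and 721.2 in the mutant, against 384.9, 345.4 and 179.5 in wild type. The log2 changes were 1.74 ± 0.263 (limma, adjusted p = 0.00072) for AT1G51820 and 1.35 ± 0.218 (adjusted p = 0.0011) for AT1G51850. On the log2 scale the mutant arrays spanned 0.26 for AT1G51820 and 0.16 for AT1G51850. The gaps in wild type replicate 3 were wider, at 0.93 and 0.89, but the rule required at least 0.8.

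AT3G46280, which encodes a protein related to receptor kinases, was at 1221, 1178.8 and 1102.7 in the mutant, against 527.3, 478.9 and 200.7 in wild type. Its mutant mean was 2.32 times the mean of wild type replicates 1 and 2 and 5.82 times wild type replicate 3. BIK1, the cytoplasmic kinase that relays signals from immune receptors, was at 1099.6, 1045.4 and 1207.2 in the mutant, against 804.4, 787.9 and 443.4 in wild type. It had the smallest change of the 6 kinases, 0.75 ± 0.189 (limma, adjusted p = 0.0155), and did not pass once mutant replicate 3 was left out (adjusted p = 0.0533). Wild type replicates 1 and 2 were nearly equal for BIK1, and all 3 mutant arrays exceeded both.

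The other kinase genes were dimmer. AT3G22750, a protein kinase gene, was at 254.1, 297.4 and 237.8 in the mutant, against 163.8, 129.6 and 65.5 in wild type. AT1G70250, a receptor kinase gene, was at 160.6, 178.4 and 161.9 in the mutant, against 109.7, 93.1 and 44.4 in wild type. The groups did not overlap for either gene. AT3G22750 changed by 1.11 ± 0.252 (limma, adjusted p = 0.00898) and kept its call without wild type replicate 3 (adjusted p = 0.0175), whereas AT1G70250 changed by 0.96 ± 0.256 and did not pass without that array (adjusted p = 0.0608). Of the fixed list of receptor and MAP kinases, whose symbols caught only BIK1 among the members, 3 were tested, 1 was higher and 1 lower. The shares of all tested probe sets were 8.17% and 10.4%.

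The deepest lows in wild type replicate 3 belonged to a pair of genes for small secreted proline-rich proteins with a lipid-transfer domain. AT4G12490 was at 12189.2, 14245.7 and 12311.8 in the mutant, against 5616.1, 5619.3 and 757.5 in wild type. AT4G12500 was at 4639.8, 5188.7 and 3098.4 in the mutant, against 1656.4, 2117.1 and 298.1 in wild type. Wild type replicates 1 and 2 were 7.42 times replicate 3 for AT4G12490 and 6.33 times for AT4G12500, by their mean, and the mutant means were 2.30 and 2.28 times that mean. The genes lie close together, with 1 gene between them, and are similar, so their probe sets may share signal.

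Because their wild type arrays spread so far, the standard errors of these genes were wide. AT4G12490 changed by 2.15 ± 0.548 (limma, adjusted p = 0.0165), and by 1.20 ± 0.118 (adjusted p = 4.98e-05) against wild type replicates 1 and 2. AT4G12500 changed by 2.02 ± 0.516 (adjusted p = 0.0164), and by 1.16 ± 0.188 (adjusted p = 0.00123) against those arrays. With a robust variance model neither passed (adjusted p = 0.21 and 0.209), nor without mutant replicate 2 (0.0576 and 0.0655) or without the filter (0.0526 and 0.0516). Leaving out wild type replicate 3 thus gave smaller changes with smaller errors.

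**Figure D3:**
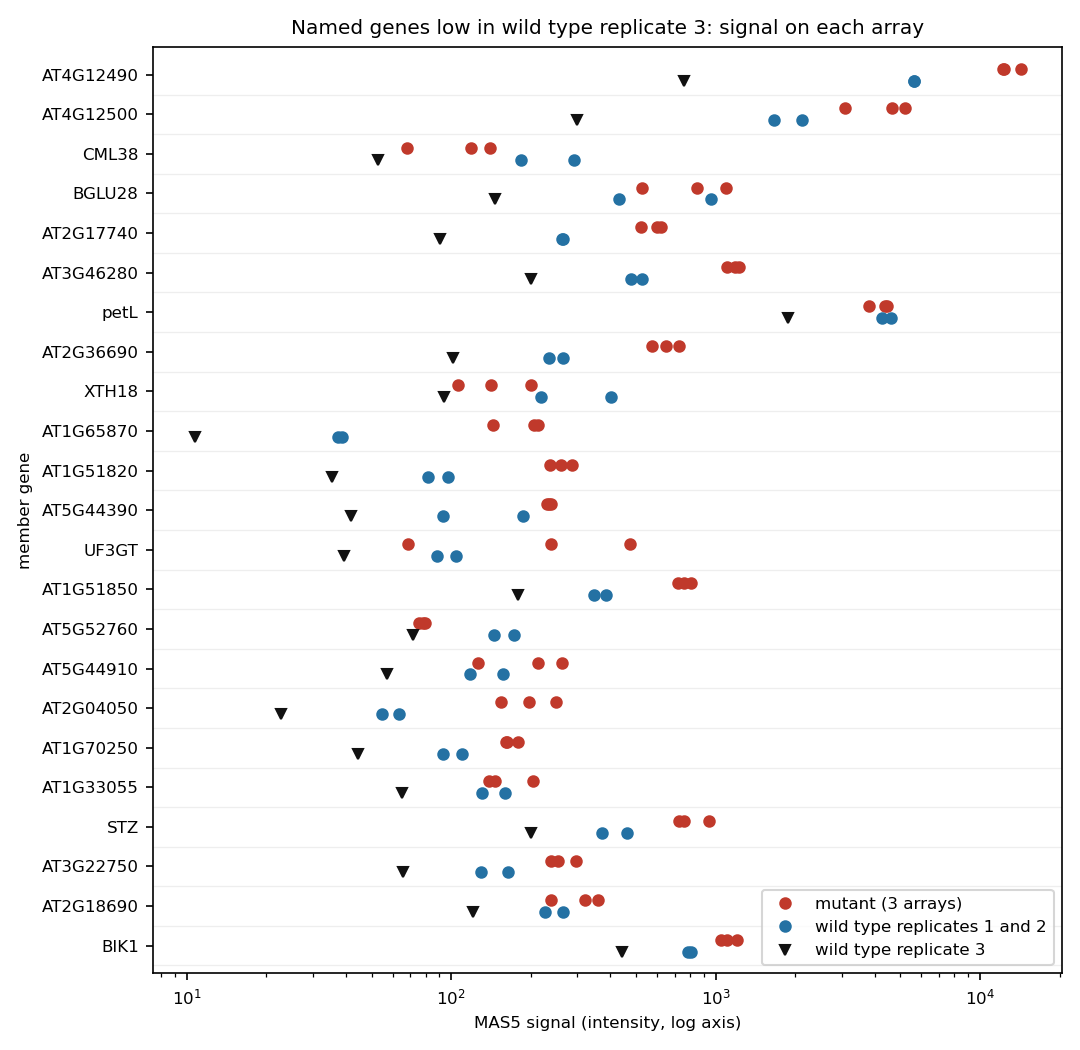
Signal (MAS5 intensity, log axis) of the 23 named members on each array, with mutant arrays in red above wild type arrays in blue (replicates 1 and 2) and black (replicate 3), ordered by the gap in wild type replicate 3. Red points lie right of all blue points for AT4G12490, STZ, BIK1 and 11 other genes, overlap the blue range for 6 such as petL, and lie left of it for CML38, XTH18 and AT5G52760.

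AT2G36690, AT2G17740 and AT5G44390 also had every mutant array above every wild type array. AT2G36690, a gene for an oxoglutarate-dependent oxygenase, was at 650.4, 725.2 and 575.6 in the mutant, against 233.9, 264.7 and 101.4 in wild type, a log2 change of 1.72 ± 0.260 (limma, adjusted p = 0.000734). AT2G17740, which encodes a cysteine- and histidine-rich domain protein, was at 621.7, 597.8 and 524 in the mutant, against 263.5, 264.1 and 90.6 in wild type, a log2 change of 1.55 ± 0.294. Both kept their calls without wild type replicate 3, with changes of 1.33 ± 0.158 and 1.09 ± 0.153. AT5G44390, a gene for a berberine bridge enzyme-like oxidase, was at 234.1, 231 and 239.4 in the mutant, against 93.2, 186.6 and 41.8 in wild type. Its mutant arrays were almost equal while its wild type arrays all differed. Its limma call (adjusted p = 0.0253) did not hold without wild type replicate 3 (adjusted p = 0.0578), without wild type replicate 1 (0.065), with any 1 mutant array left out (0.0568 to 0.0689), with a robust variance model (0.0508) and without the filter (0.0706).

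AT1G65870, a dirigent protein gene, and AT2G04050, a gene for a MATE efflux transporter, were too dim for the test. AT1G65870 was at 144.4, 212.5 and 206 in the mutant, against 37.2, 38.5 and 10.7 in wild type. AT2G04050 was at 250, 197.2 and 154 in the mutant, against 63.6, 54.8 and 22.8 in wild type. Their groups did not overlap, and the mutant means were 4.96 and 3.39 times the means of wild type replicates 1 and 2. Both, like AT1G51820, AT1G70250 and UF3GT, entered the set only because their mutant signals raised the mean over 6 arrays to 100.

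For 6 named members every mutant array was above wild type replicate 3, but not every one was above wild type replicates 1 and 2. BGLU28, a beta-glucosidase gene known for its induction by low sulphur, was at 849.2, 527.1 and 1094.2 in the mutant, against 960.9, 429.7 and 146.6 in wild type. The chloroplast gene petL, for a small subunit of the cytochrome b6f complex, was at 4456.9, 4382.3 and 3815.8 in the mutant, against 4601.1, 4248 and 1872.5 in wild type. For petL the mutant mean was 0.953 times that of wild type replicates 1 and 2, and the log2 change was 0.34 ± 0.253 (limma, adjusted p = 0.394) with all arrays and -0.07 ± 0.120 (adjusted p = 0.755) without wild type replicate 3. Of 69 chloroplast probe sets with a mean of 100 or more, petL alone met the rule, and wild type replicate 3 was below both other wild type arrays in 7 of them, against 29.8% of all probe sets at that brightness.

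UF3GT, a glycosyltransferase gene of anthocyanin synthesis with a wild type mean of 77.1, was at 473.4, 68.6 and 239 in the mutant, against 104.1, 88 and 39.2 in wild type. Its highest mutant array was 6.90 times its lowest, the widest such ratio among the named members, and mutant replicate 2 lay below wild type replicates 1 and 2. Its log2 change was 1.31 ± 0.492 (limma, adjusted p = 0.0859), and 2.00 (adjusted p = 0.00384) without mutant replicate 2. UF3GT was also the named member among 3 that were lower by 0.8 or more in mutant replicate 2 than in both other mutant arrays.

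AT5G44910, AT2G18690 and AT1G33055 did not pass either. AT5G44910, a gene for a protein with a TIR domain as found in immune receptors, was at 213.3, 263.1 and 126.1 in the mutant, against 117.3, 157.1 and 57 in wild type (log2 change 0.81 ± 0.312; limma, adjusted p = 0.093). AT2G18690 was at 358.9, 238.2 and 321.7 in the mutant, against 263.7, 227.1 and 120.5 in wild type. AT1G33055 was at 139, 147 and 203.1 in the mutant, against 160.4, 130.7 and 65.4 in wild type. In all of these every mutant array exceeded wild type replicate 3, and at least 1 lay within the range of the other wild type arrays.

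For 4 members all mutant arrays lay between wild type replicate 3 and the other wild type arrays, and for 3 more, all unnamed, at least 1 mutant array was at or below wild type replicate 3. The named ones were CML38, XTH18 and AT5G52760. CML38, a calmodulin-like calcium sensor gene induced by wounding and low oxygen, was at 118.4, 68.2 and 140.3 in the mutant, against 183.7, 292.3 and 52.9 in wild type. XTH18, a gene for a xyloglucan-modifying wall enzyme, was at 106.4, 141.7 and 200.7 in the mutant, against 402.8, 217.8 and 94.3 in wild type. AT5G52760, a gene for a protein with a heavy-metal-associated domain, was at 79.8, 75.4 and 78.5 in the mutant, against 145, 172.7 and 71.8 in wild type. In each of these genes the mutant mean was below the mean of wild type replicates 1 and 2.

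With all arrays CML38 changed by -0.42 ± 0.430 (limma, adjusted p = 0.549) and XTH18 by -0.46 ± 0.376 (adjusted p = 0.447), and AT5G52760 was too dim to test. Against wild type replicates 1 and 2 alone CML38 fell by 1.04 ± 0.283 on the log2 scale (adjusted p = 0.0275) and XTH18 by 0.96 ± 0.278 (adjusted p = 0.0363). The lower calls of CML38 and XTH18 thus depend on leaving out wild type replicate 3. The rule required wild type replicates 1 and 2 to be high, so a fall against them was in part built in. In the fixed calcium and touch list, 3 genes were tested and 1 was lower: CML42, not a member, was at 172.8, 167 and 182 in the mutant, against 541.6, 304.6 and 382.1 in wild type. In the fixed cell wall list 5 of 36 tested genes were higher and 12 lower, with a median log2 change of -0.33. For all tested probe sets the shares were 8.17% higher and 10.4% lower, and the median was -0.05.

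**Figure D4:**
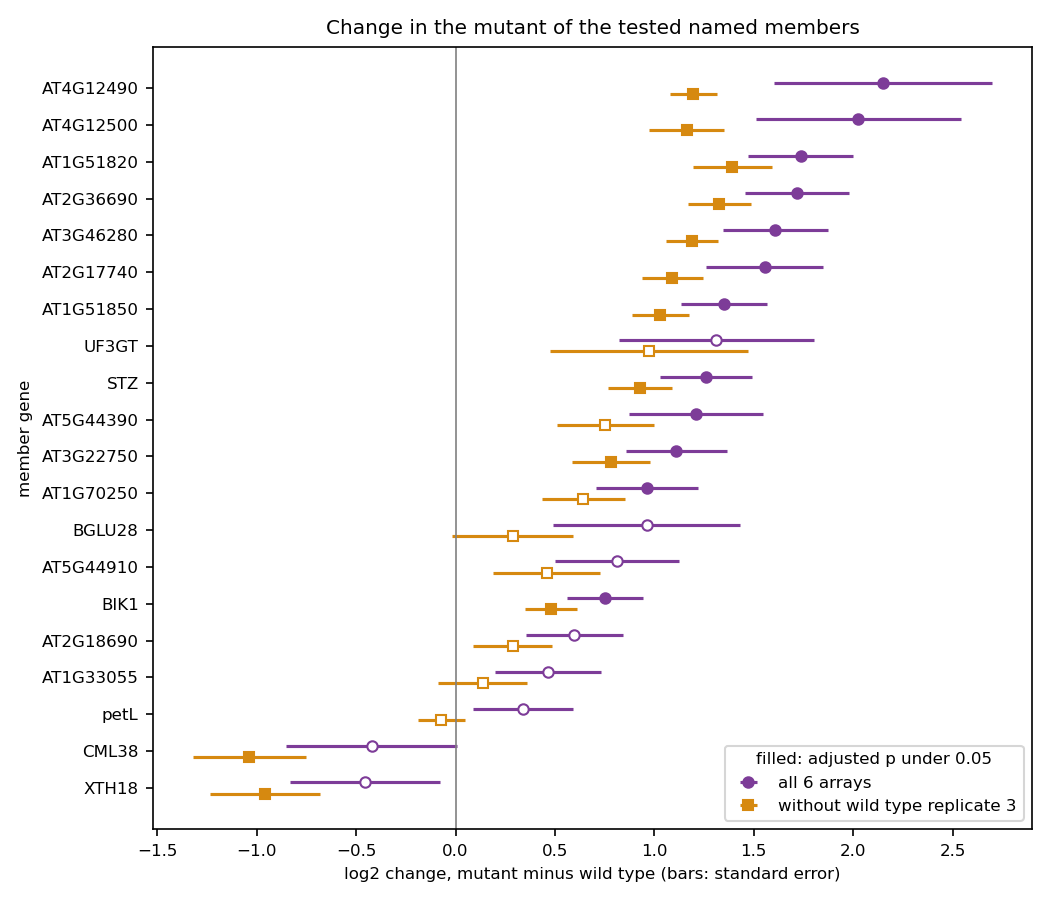
Log2 change, mutant minus wild type, of the 20 tested named members with standard errors, from all 6 arrays (purple circles) and without wild type replicate 3 (orange squares); filled symbols have a limma adjusted p under 0.05. Every orange square lies left of its purple circle, as leaving out the low array must give, and 12 circles and 12 squares are filled, of which 10 squares are on the higher side and CML38 and XTH18 on the lower side.

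Other stress lists fixed for these data held few or no members. Members are only 0.328% of probe sets with a mean of 100 or more, so short lists would hold few at that share. The lists also match by symbol and cannot reach the 8730 probe sets with no gene. Beside the counts below, 8.17% of all tested probe sets were higher and 10.4% lower, with a median log2 change of -0.05. Of 11 tested genes for defensins, thionins and other defence proteins 4 were higher and 3 lower, and none was a member. THI2.2, a thionin gene, was at 680.1, 1118.8 and 932.3 in the mutant, against 220.4, 204.3 and 241.7 in wild type, so a large rise there came with no low signal in wild type replicate 3. Of 5 tested cold and abscisic acid genes 4 were lower and 0 higher, with a median log2 change of -0.86. Of 3 genes that the heat shock list matched by symbol alone, Hsp70-2 and Fes1A were higher, and BRK1 was not called. Of 8 tested ubiquitin ligase genes 1 was lower. Of 35 tested glutathione transferase and glycosyltransferase genes 7 were higher and 5 lower. Of 3 tested genes that the peroxidase list matched by symbol 1 was lower, and the 1 called higher, AT5G64120, is among the genes left out by name. That list did not catch AT5G39580, another peroxidase gene left out by name, which was also called higher.

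The 23 members with no gene named here showed a like split. Of 20 that were tested 12 were higher, 8 of them also without wild type replicate 3. Over all tested probe sets the shares were 8.17% and 6.29%. In 14 of the 23 every mutant array was above every wild type array, against 14.8% of probe sets with a mean of 100 or more. Members with wild type means of 88, 74.8 and 80.0 are among these 14 and among the 12 called higher. They reached the mean of 100 only through their mutant signals, so a higher mutant signal was in part required of them. The brightest pair was chosen after their values were seen. The brightest was at 10715, 11640.9 and 10146.6 in the mutant, against 4086.8, 4749.8 and 790.5 in wild type. The next was at 8771.8, 9108.4 and 8182.4 in the mutant, against 4193.6, 4097 and 924.1 in wild type. In both, as in AT4G12490, every mutant array was above wild type replicates 1 and 2. Wild type replicate 3 was lowest, as the rule requires of the wild type. At the other end, also chosen after the fact, 1 unnamed member was at 35.6, 37.7 and 85.6 in the mutant, against 153.1, 275.6 and 77.4 in wild type, and another was at 72.4, 42 and 118.9 in the mutant, against 293.1, 139.7 and 55.9 in wild type. Both had at least 1 mutant array below wild type replicate 3. The unnamed member called lower without wild type replicate 3 was at 85.2, 116.3 and 104 in the mutant, against 198.3, 213.6 and 91.7 in wild type, a log2 change of -0.57 ± 0.269 with all arrays (limma, adjusted p = 0.166) and -0.92 ± 0.218 (adjusted p = 0.0134) without that array. The rule required the wild type arrays left in that fit to be high, so that lower call was in part built in. The mutant mean of 5 unnamed members was below the mean of wild type replicates 1 and 2.

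The mutant arrays, which the gap did not use, differed among themselves more at the median of the members than over all probe sets with a mean of 100 or more. The comparison was not matched for brightness, and 22 members had a mean under 200. The range over the 3 mutant arrays was 0.44 on the log2 scale at the median of the members, against 0.30 over all probe sets with a mean of 100 or more. It was 0.26 at the median of the 24 members called higher. In the 28 members with every mutant array above every wild type array it was 0.28, and both conditions favour a small range. A range of 0.8 or more was found in 11 of 46 members, against 4.93% of all probe sets with a mean of 100 or more. The lowest mutant array was replicate 1 for 16 members, replicate 2 for 14 and replicate 3 for 16, so no single mutant array was low throughout.

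The cut at 0.8 passed through a continuous range of gaps. Just inside it lay BIK1 (0.81), AT2G18690 (0.83) and AT3G22750 (0.84). Just outside lay AT1G73120 (0.79), AT5G46730 (0.78) and AT2G43620 (0.78). AT2G43620, a chitinase gene, was at 8697.6, 8238.8 and 7543.1 in the mutant, against 3804.3, 4634.6 and 2211.3 in wild type, while AT1G73120 was at 116.7, 115.4 and 239.2 in the mutant, against 230.1, 181.8 and 98.2 in wild type.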

How the data were processed

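The deposited values are linear probe set intensities, made with MAS5 per the submitters' processing notes. The MAS5 version is not given in the sources used here. After removing 2% of the values at each end, every deposited array had a mean of 500.0, so the intensity scale was set by 1 factor per array. The intensities were used as log2(value + 16), on which changes of dim probe sets are understated. Probe sets with mean log2 above the 40th percentile (signal about 108.6) were tested, 13647 of 22746; 64 controls were left out. limma 3.58.1 in R 4.3.3 (lmFit, eBayes with trend) compared the groups with Benjamini-Hochberg adjustment, after tests on simulated data. Genes came from the platform annotation, updated by Entrez number to RefSeq (TAIR10.1): 13513 probe sets had 1 gene (13436 matched), 503 several, 8730 none.

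Only single-gene members are named: STZ, the largest gaps, rises and falls, those nearest no change, list members, those most like STZ and those at the cut, which covers all 23. The members and lists were chosen with earlier results of these data known. Nothing in the labels states that replicates were grown separately. The p-values may then reflect technical spread only, and 3 arrays a group limit the precision. Mutant and wild type arrays with the same replicate number had deviation correlations of -0.196, 0.0157 and -0.167. With deviations taken within groups of 3 arrays, these values cannot settle whether the samples were paired. Values in the text follow replicate order 1, 2, 3, and standard errors are limma's. No sequences of members were used here. Figures used matplotlib 3.10.9.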

Additional observations from a re-analysis of the deposited data

How the results depend on the processing

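With the 46 members fixed, the number called higher was 24 as reported and 16 to 28 with offsets of 1 and 64, quantile normalization, median centring, no filter, and eBayes without trend or robust. It was 14 with a 60th percentile filter, which tested 20 members, and 13 at an adjusted p under 0.01. Over all tested probe sets the share called higher was 4.26% to 11.4% in these settings. The replicate block gave 27 higher and 0 lower, against 6.46% and 8.1% of all tested probe sets, but whether replicate numbers pair the samples is not known. Leaving out each array gave 18 to 26 higher, 0 to 3 lower and a median log2 change of 0.72 to 1.40. The 18, 3 and 0.72 came without wild type replicate 3. Over all tested probe sets those fits called 5.73% to 7.14% higher and 6.43% to 9.45% lower. The rule found 99 members with a gap of 0.6, 16 with 1.0, 77 with a mean of 50 or more, 24 with 200 or more, 18 with offset 64, 58 with offset 1, 40 after quantile normalization and 53 after median centring. Every mutant array was above every wild type array in 45, 11, 33, 16, 11, 31, 23 and 30 of these, and the mutant mean was above wild type replicates 1 and 2 in 66, 12, 47, 22, 15, 43, 31 and 41. Over all probe sets with a mean of 100 or more, 14.8% and 45.4% met these conditions in the main setting. With the mean taken over wild type arrays, an alternative added after seeing the data, 19 of 34 tested members were called higher and 0 lower, and without the filter 12 of 38 and 0. The share of all tested probe sets called higher was 8.17% with the filter and 4.26% without it. Of 290 alternatives for single named genes 264 left direction and call as reported, 17 lost and 6 gained a call, and 3 reversed. Leaving out each array gave log2 changes of -1.037 to 0.04404 for CML38, -0.9576 to 0.004808 for XTH18 and -0.07087 to 0.574 for petL, with the reversed sign without wild type replicates 2, 1 and 3 in turn. The cause of these shifts was not tested. Dim members, 22 with a mean under 200, have the least certain changes.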
